A study of Mus musculus with 18 samples.

Results

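Whole blood of mice taken 6 hours after 2 Gy of gamma rays was compared with that of sham-treated mice over all genes measured. The comparison rests on 12 of the 18 arrays of the series, chosen by their titles: 5 from mice given 2 Gy and 7 from mice given 0 Gy. All were male C57BL/6N mice aged 8 to 12 weeks, exposed to a cesium source in a pie cage or handled as sham controls. Blood came from cardiac puncture. RNA came from the RiboPure kit in 5 mice at 0 Gy and 4 at 2 Gy, and from the PAXgene kit in 2 and 1. Globin RNA was removed, and 400 ng of RNA from each mouse was labelled with Cy3 and put on 1 Agilent array. The labels describe the samples as biologically distinct. The remaining 6 arrays, from mice given 8 Gy, entered the model only to estimate the spread between arrays, and some of their values are set beside those at 2 Gy.

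Ionizing radiation breaks DNA, and the damage stabilizes the transcription factor p53, which switches on genes that halt the cell cycle, repair DNA, limit p53 itself or kill the cell. Among blood cells, B cells are known to be especially prone to die after irradiation, whereas neutrophils live briefly, do not divide and are replaced from the marrow. A whole-blood profile mixes all these cells, so fewer cells of a type and less RNA per cell cannot be told apart in the values below.

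Values are log2 signals of a gene's probe minus the 75th percentile of the same array, so a difference of 1 is a doubling. Differences are 2 Gy minus 0 Gy from the linear model, with dose and RNA kit as terms, and the error beside them is the model's standard error. A gene passed when its limma p was under 0.05 after Benjamini-Hochberg adjustment across the 13356 genes tested. Words such as rose and fell are used of genes that passed.

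The array labelled 0 Gy replicate 5 did not sit with the other sham arrays. Over 57 measured p53 targets its mean level was 1.09 above the median of the other 6 sham arrays, which lay between -0.15 and 0.07, whereas the 2 Gy arrays lay between 0.80 and 1.35. Over 28 B cell genes it was at -1.97, against -0.58 to 0.42 in the other sham arrays and -3.55 to -1.82 at 2 Gy. It was kept at 0 Gy as labelled, and since it was singled out from its values, the model was fitted with it (18 arrays) and without it (17 arrays). Leaving out a sham array that lay with the 2 Gy arrays over these genes tends to enlarge their differences and lower their p. The calls and p from 17 arrays can therefore be too favourable for such genes. The array labelled 0 Gy replicate 5 shared a slide with 2 Gy replicate 3. That array was the lowest of the 5 at 2 Gy over the p53 targets, at 0.80, and above the other 6 sham arrays. Whether the array labelled 0 Gy replicate 5 carries the right label was not tested, and every value from 18 arrays takes the label as given.

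The arrays also differed in brightness. The 75th percentile of the signal ran from 46.4 to 186 intensity units at 2 Gy and from 138 to 425 at 0 Gy, and on the log2 scale the means were 6.92 and 7.83 (exact 2-sided permutation test over 792 splits, p = 0.0492). The number of probes read well above background was 15458 to 19520 at 2 Gy and 19266 to 24450 at 0 Gy (exact 2-sided permutation test, p = 0.0139). Their part in the results was not tested apart from the fit with brightness as a term, given below. With 1 array per mouse, precision is limited by how many mice there were.

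With all 18 arrays, 7 genes passed, 4 higher and 3 lower at 2 Gy. The 4 that rose include Psrc1 and Dglucy, both known p53 targets, and Inka2, which encodes an inhibitor of the kinase Pak4. This is 0.0524% of the genes tested (0.0299% higher, 0.0225% lower). Before adjustment 2721 genes (20.4%) had a p under 0.05, whereas 668 would by chance. In the fit of 17 arrays 905 genes (6.78%) passed. Of them 534 rose (4.00%) and 371 fell (2.78%), the 7 genes were all included, and 3605 genes (27.0%) had an unadjusted p under 0.05. Of the 905, 419 rose and 253 fell by at least 2-fold. Every gene other than the 7 that is said below to have risen or fallen did so with 17 arrays and did not pass with 18. Values are from 17 arrays unless 18 are named.

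Array by array, the 7 genes looked as follows. Psrc1, a microtubule-associated protein, had values of 3.09, 3.45, 1.96, 3.66 and 3.39 in 2 Gy replicates 1 to 5. In the 6 other sham arrays it ran from -3.35 to -0.78 with a median of -1.32, and in the array labelled 0 Gy replicate 5 it was 2.86. All 5 arrays at 2 Gy were thus above the 6 sham arrays but not all above replicate 5. The difference was 4.05 ± 0.70 with 18 arrays (adjusted p = 0.0421) and 4.76 ± 0.38 with 17 (adjusted p = 8.88e-06), a 27.2-fold rise. The 2 other probes of Psrc1 gave 3.16 and 3.91. The Psrc1 probe lies at chr3:108206316-108206375 on the build mm7, the one the files use.

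Dglucy, the mitochondrial enzyme that handles D-glutamate, had the smallest SD of the 7 at 2 Gy, 0.12. The 2 Gy arrays held 3.15, 3.23, 3.46, 3.21 and 3.27. The 6 sham arrays ran from 0.64 to 1.74 with a median of 0.96, and replicate 5 was at 3.27, inside the 2 Gy range. Dglucy rose by 1.88 ± 0.32 with 18 arrays (adjusted p = 0.0421) and by 2.21 ± 0.18 with 17 (adjusted p = 8.88e-06), and its other probe gave 2.64. The Dglucy probe is at chr12:98367564-98367623.

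Inka2 was read well above background in all 5 mice at 2 Gy but in 2 of 7 sham mice, so its sham level is poorly measured. Its values at 2 Gy were -1.52, -1.09, -2.47, -0.55 and -1.28, against -5.09 to -3.98 (median -4.29) in the 6 sham arrays and -2.01 in replicate 5. It rose by 2.59 ± 0.40 with 18 arrays (adjusted p = 0.0311) and by 2.94 ± 0.29 with 17 (adjusted p = 6.36e-05). The fourth gene that rose was 9230114K14Rik, a transcript with no assigned role. Its 2 Gy values were -1.21, -0.87, -2.20, -0.92 and -1.64, and the 6 sham arrays ran from -5.14 to -3.91 with replicate 5 at -2.06. It was read above background in 1 of 7 sham mice and in 5 of 5 at 2 Gy, and rose by 2.96 ± 0.45 with 18 arrays (adjusted p = 0.0311). The 1 sham array above background was replicate 5, so against the other 6 its level was at least 5.39-fold higher (adjusted p = 5.44e-05). The Inka2 probe is at chr3:105536978-105537037 and that of 9230114K14Rik at chr5:51570673-51570732.

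The 3 genes that fell with 18 arrays were all dim, and none was read above background on any array at 2 Gy. Of the 2 groups compared, the sham arrays alone thus brought them past the filter. Zfp94, a zinc finger protein, had values of -4.75, -4.16, -3.86, -4.06 and -3.20 at 2 Gy, against -2.69 to -1.56 in the 6 sham arrays and -2.71 in replicate 5. Here the array labelled 0 Gy replicate 5 lay with the sham side, and none of the 2 Gy arrays overlapped the 7 at 0 Gy. Zfp94 fell by 1.75 ± 0.28 (adjusted p = 0.0311). Since it was above background on 7 of 7 sham arrays and 0 of 5 at 2 Gy, its level was at least 1.33-fold lower at 2 Gy, a bound from the lowest signal called above background on each array.

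Ppm1e, a protein phosphatase, fell by 2.07 ± 0.36 (adjusted p = 0.0421), from a sham range of -2.75 to -1.27 (replicate 5 at -2.95) to -4.75, -4.31, -4.53, -3.70 and -3.34. Its probe was read above background in 6 sham mice and in none at 2 Gy, so its level was at least 1.54-fold lower. D130051D11Rik fell by 1.49 ± 0.24 (adjusted p = 0.0311). Its sham arrays ran from -3.93 to -1.88 and its 2 Gy values were -4.83, -4.29, -3.43, -4.13 and -5.06, so the groups overlapped. It was above background on 5 of 7 sham arrays and 0 of 5 at 2 Gy, no bound on its fold could be given, and with normexp background correction its difference was 0.09 in place of -1.49. The probe of Zfp94 lies at chr7:21089871-21089930, that of Ppm1e at chr11:87296894-87296953 and that of D130051D11Rik at chr15:85749934-85749993.

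**Figure D1:**
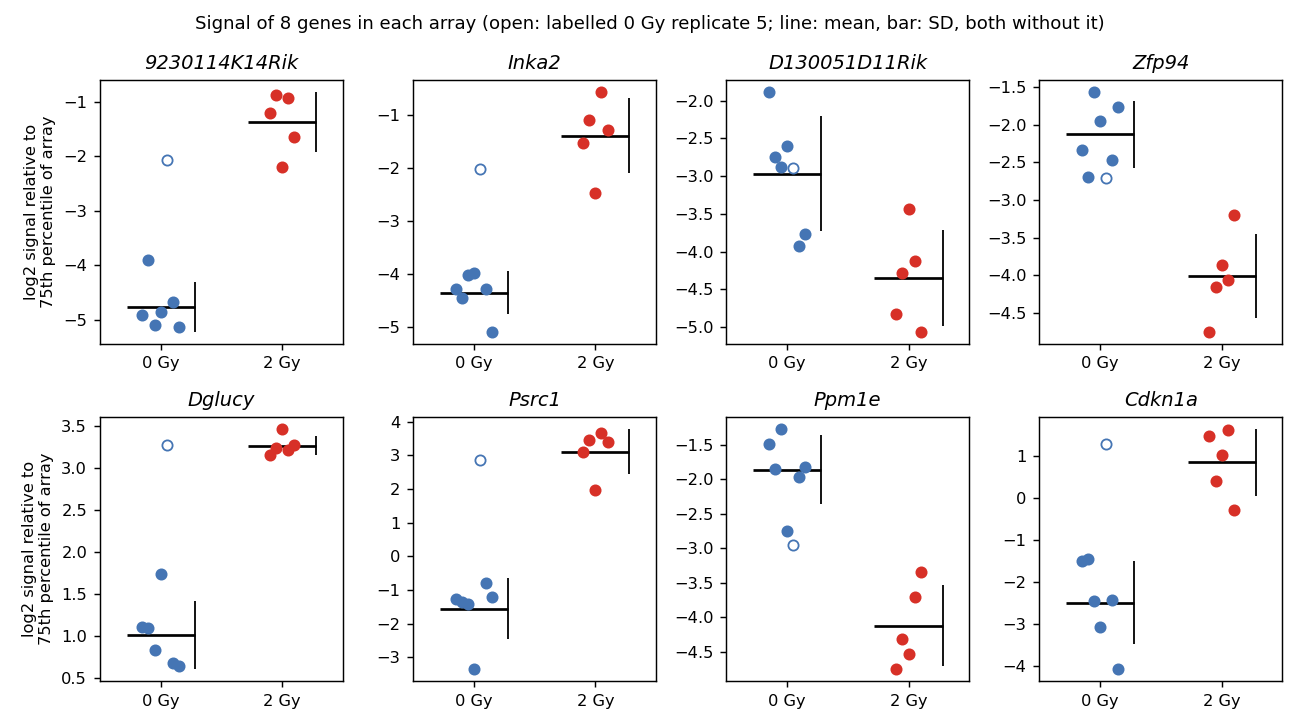
Log2 signal relative to the 75th percentile of each array (vertical axes) at 0 Gy and 2 Gy for the 7 genes that passed with 18 arrays and for Cdkn1a. Points are arrays, the open point is the array labelled 0 Gy replicate 5, lines are means and bars SDs without it; Psrc1 at 2 Gy runs from 1.96 to 3.66 and the open point is at 2.86.

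Just outside the threshold with 18 arrays lay 34 genes that shared an adjusted p of 0.0629. The 10 of them with the smallest unadjusted p were Aaas, 1700007K13Rik, Gga2, Aen, Cd79a, Dcxr, Ddias, Strbp, Qsox1 and Fcrl1. Among these 10, Aen (a p53-induced nuclease), Ddias (an inhibitor of apoptosis after DNA damage) and Dcxr (a p53 target that reduces sugars) were higher at 2 Gy, and Cd79a, the signalling chain of the B cell receptor, and Fcrl1, a B cell surface protein, were lower. All 10 passed with 17 arrays. 1700007K13Rik had -1.39, -1.27, -1.72, 1.32 and -0.58 at 2 Gy, against -5.63 to -4.30 in the 6 sham arrays and -1.35 in replicate 5. All 5 arrays at 2 Gy read it above background and 0 of the 6 sham arrays did, so its level was at least 8.38-fold higher than in those 6 (adjusted p = 4.80e-04).

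The count of 905 moved with the arrays and with the model. It was 313, 423, 658, 888, 760 and 443 without 0 Gy replicates 1, 2, 3, 4, 6 and 7 in turn. Without 2 Gy replicates 1 to 5 in turn it was 363, 538, 2403, 206 and 164. With the slide as a fixed block it was 101, with the scan day 25, with array brightness as a term 40 and with the RiboPure arrays alone 105. With the slide as a random block it was 1227, and with a filter of at least 12 arrays above background 984. With 18 arrays, leaving out 2 Gy replicate 3 raised the count from 7 to 179. Leaving out any 0 Gy or 2 Gy array other than this and 0 Gy replicate 5 brought it to 0 in limma (1687 to 2835 genes with an unadjusted p under 0.05). The share of risen genes among the calls was 59.0%. It was 43.5% when arrays were quantile normalized, 43.7% in the deposited values and 38.8% after normexp. For the genes that rose, the array labelled 0 Gy replicate 5 lay nearer the 2 Gy mean than the median of the other 6 sham arrays in 512 of 534 (95.9%), and for those that fell in 299 of 371 (80.6%), against 64.4% of all genes tested. Of the 142 genes named here by rule, 107 passed with 17 arrays, and 17 of them, 14 of which are p53 targets, passed under every alternative to the fit of 17 arrays that gave a value. With replicate 5 back in, 4 of the 17 passed and 13 did not. The naming rule takes in every core p53 target tested and genes from each p53 role list. Genes not named were not followed through the alternatives. The 14 of 17 is therefore no measure of how p53 targets compare with other genes.

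**Figure D2:**
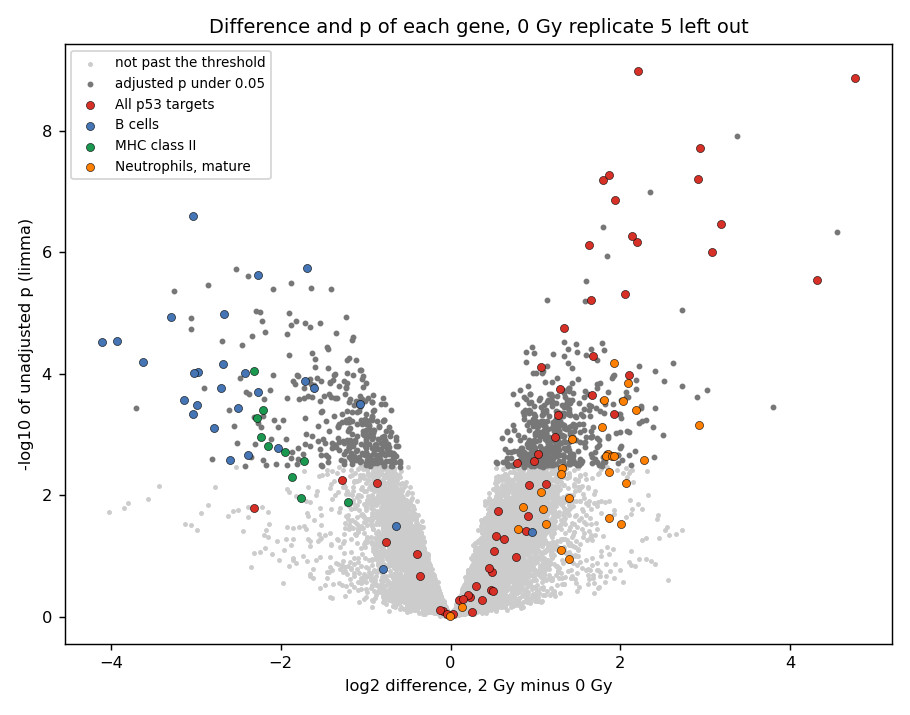
Each point is a gene: log2 difference, 2 Gy minus 0 Gy (horizontal), against -log10 of the unadjusted limma p (vertical), with the array labelled 0 Gy replicate 5 left out. Dark points passed; red p53 targets spread to the right as far as Psrc1 at 4.76, blue B cell genes to the left as far as Pax5 at -4.10.

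The p53 targets are described by role. A list of 68 was drawn up, 66 were on the array and 57 had a probe past the filter. With 17 arrays 27 of these 57 rose, none fell and 30 did not pass, against the 4.00% of all genes that rose. With 18 arrays 3 rose, and 30 were higher with an unadjusted p under 0.05, against 11.3% of all genes. With 17 arrays 33 were, against 16.8%, and 48 of the 57 differences were above 0, against 55.1%. The median difference over the 57 was 0.91, against 0.08 over all genes. All 5 arrays at 2 Gy were above the 6 sham arrays for 22 of the 57, against 1.98% of all genes, and above all 7 for 0, against 0.172%. With 1 more array left out, 19 (2 Gy replicate 5) to 30 (2 Gy replicate 3) of the targets rose. Slide as a fixed block, brightness as a term, normexp and RiboPure alone each left 16, and a block for scan day 14.

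Cell cycle targets came first: 6 of 12 rose, Psrc1, Cdkn1a, Gtse1, Plk2, Ccng1 and Ckap2, with a median difference of 1.11 over the 12. Cdkn1a, the p21 inhibitor of cyclin-dependent kinases, had 1.47, 0.41, 1.01, 1.62 and -0.30 at 2 Gy. The 6 sham arrays ran from -4.08 to -1.46 with a median of -2.44, and the array labelled 0 Gy replicate 5 was at 1.28. The arrays at 2 Gy were all above those 6, and replicate 5 lay within their range. Cdkn1a rose by 3.18 ± 0.38 with 17 arrays (adjusted p = 4.07e-04), a 9.07-fold rise, whereas with 18 arrays the difference was 2.66 ± 0.56 (adjusted p = 0.0629).

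Ccng1, cyclin G1, which brings a phosphatase to Mdm2, went from 1.15 to 1.67 in the 6 sham arrays to 3.21, 3.26, 2.53, 3.57 and 3.72, with replicate 5 at 3.31. It rose by 1.94 ± 0.22 (adjusted p = 2.04e-04), and with 18 arrays the difference was 1.62 ± 0.33 (adjusted p = 0.0629). Gtse1, a mitotic protein that also curbs p53, went from -4.86 to -3.33 to -0.90, -0.73, -0.96, -0.07 and -1.05, with replicate 5 at -0.08, and rose by 3.08 ± 0.40 (adjusted p = 7.71e-04), against 2.51 ± 0.60 with 18 arrays (adjusted p = 0.0807). The stress-induced kinase Plk2 rose by 2.05 ± 0.30. Of the 6 cell cycle targets that did not pass, Gadd45a, an arrest and repair protein, was at 0.49 ± 0.35 and Btg2, an antiproliferative factor, at 0.23 ± 0.31.

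Feedback regulators of p53 rose in 4 of 7 cases, and in 2 when any 1 of 9 of the 11 arrays, all but 0 Gy replicate 3 and 2 Gy replicate 3, was left out. None passed in limma with 18 arrays, where 4 had an unadjusted p under 0.05. Phlda3, which restrains the kinase Akt, went from 0.95 to 3.12 in the 6 sham arrays (replicate 5 at 5.36) to 5.24, 5.20, 4.50, 5.65 and 5.55, a rise of 2.91 ± 0.31 (adjusted p = 1.24e-04). Zmat3, an RNA-binding protein, went from -1.35 to -0.02 (replicate 5 at 1.19) to 1.18, 1.34, 0.78, 1.29 and 0.50, a rise of 1.63 ± 0.21 (adjusted p = 6.27e-04). Both were separate from the 6 sham arrays on every 2 Gy array. With 18 arrays they differed by 2.42 ± 0.50 and 1.38 ± 0.29, both with an adjusted p of 0.0629.

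Mdm2, the ubiquitin ligase that destroys p53, moved less. Its 2 Gy values of 3.13, 3.13, 2.59, 3.82 and 2.40 overlapped the sham range of 1.30 to 2.63. Mdm2 rose by 0.98 ± 0.28 with 17 arrays (adjusted p = 0.0457), a 1.98-fold rise that passed under 6 of 25 alternatives, and was at 0.84 ± 0.29 with 18 (adjusted p = 0.152). Trp53inp1, which promotes p53 activity, rose by 1.03 ± 0.28 (adjusted p = 0.0415), also under 6 of 25. Mdm4, the partner of Mdm2, was at 0.20 ± 0.25 and the phosphatase Ppm1d at 0.45 ± 0.30, and neither passed.

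Death genes rose in 7 of 13 cases, with a median of 0.91. The count was 4 without 0 Gy replicate 2, 2 Gy replicate 4 or 2 Gy replicate 5, and 3 with normexp, a fixed block for the slide, scan day or replicate number, brightness as a term or the RiboPure arrays alone. In the fit of 18 arrays 0 passed in limma, where 7 were higher and 1 lower with an unadjusted p under 0.05. Bbc3, the BH3-only protein Puma, had 4.67, 4.87, 3.83, 5.27 and 5.31 at 2 Gy, against 1.69 to 3.23 in the 6 sham arrays and 4.80 in replicate 5. It rose by 2.19 ± 0.28 (adjusted p = 6.08e-04). Bax, the pore-forming effector, had 3.13, 3.05, 2.35, 2.99 and 3.09, against 0.49 to 1.53 and 3.06 in replicate 5, and rose by 1.86 ± 0.19 (adjusted p = 1.24e-04). In both, all 5 arrays at 2 Gy stood above the 6 sham arrays. With 18 arrays the differences were 1.83 ± 0.40 (adjusted p = 0.0636) and 1.54 ± 0.32 (adjusted p = 0.0629).

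Aen rose by 1.80 ± 0.19 (adjusted p = 1.24e-04), from 1.23 to 2.01 in the 6 sham arrays to 3.17, 3.31, 3.48, 3.76 and 3.16. The file places this Aen probe on chromosome 4 of mm7, whereas RefSeq has the gene on chromosome 7, so the transcript it reads is uncertain, and the gene's other probe gave 1.57. The death receptor Fas rose by 1.68 ± 0.31 (adjusted p = 0.00884), from 1.14 to 2.06 to 3.25, 3.22, 2.21, 4.13 and 3.21. Pmaip1, the BH3-only protein Noxa, rose by 1.23 ± 0.31 (adjusted p = 0.0299), Ei24 by 1.27 ± 0.29 and the apoptosis inhibitor Triap1 by 0.78 ± 0.22. Apaf1, the scaffold of the apoptosome, was at 0.91 ± 0.36 and the death receptor Tnfrsf10b at 0.50 ± 0.55, and neither passed.

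Of the 15 measured Bcl2 family members, Bax, Bbc3 and Pmaip1 were the 3 that rose, and all are p53 targets already counted above. The guardians Bcl2 and Mcl1 were at -0.21 ± 0.26 and 0.15 ± 0.23, and the BH3-only gene Bcl2l11, which encodes Bim, at 0.75 ± 0.27 (adjusted p = 0.0915).

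Repair targets of p53 rose in 2 of 7 cases. Polk, a polymerase that copies past damaged bases, went from -1.75 to -0.89 in the 6 sham arrays to 0.16, 0.44, -0.41, 1.08 and 0.56 and rose by 1.65 ± 0.25 (adjusted p = 0.00245). Rps27l, a ribosomal protein paralog, rose by 1.33 ± 0.22 (adjusted p = 0.00479). Ddb2, the damage sensor of nucleotide excision repair, had 0.80, 0.95, -0.54, 1.09 and 0.77 at 2 Gy and 0.45 to 1.24 in the 6 sham arrays. These overlapped, and the difference of -0.36 ± 0.28 did not pass (adjusted p = 0.423). Xpc and Rrm2b, at 0.15 ± 0.22 and -0.76 ± 0.37, did not pass either.

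Metabolic targets rose in 4 of 11 cases: Dglucy, Dcxr, the thiamine carrier Slc19a2 and Sesn2. Without 2 Gy replicate 5 the count was 2. Sesn2, a sestrin that damps mTORC1, rose by 1.93 ± 0.44 (adjusted p = 0.0205), from 1.22 to 2.71 in the 6 sham arrays to 4.44, 3.77, 3.03, 5.66 and 3.66. Its relative Sesn1 went the other way without passing: 3.95, 4.24, 2.76, 3.68 and 4.02 at 2 Gy against 3.93 to 4.87, a difference of -0.87 ± 0.28 (adjusted p = 0.0654). Both other probes of Sesn1 were negative too, at -1.57 and -1.18, and its difference passed under 4 of 25 alternatives.

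Targets with signalling roles rose in 4 of 7 cases. Tnfsf4, the costimulatory ligand OX40L, had -0.82, -1.48, -4.41, -0.40 and -0.82 at 2 Gy, against -6.33 to -5.40 in the 6 sham arrays and -1.73 in replicate 5. The value in 2 Gy replicate 3 was thus far below those of the other 4 arrays. At 2 Gy 4 of 5 arrays read Tnfsf4 above background, and of the sham arrays replicate 5 alone did, so its level was at least 4.61-fold higher than in the other 6 (adjusted p = 0.00166). Cd80, another costimulatory ligand, rose by 1.66 ± 0.35 (adjusted p = 0.0164) and overlapped the sham range. Gdf15, a stress cytokine, was at 0.03 ± 0.33.

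**Figure D3:**
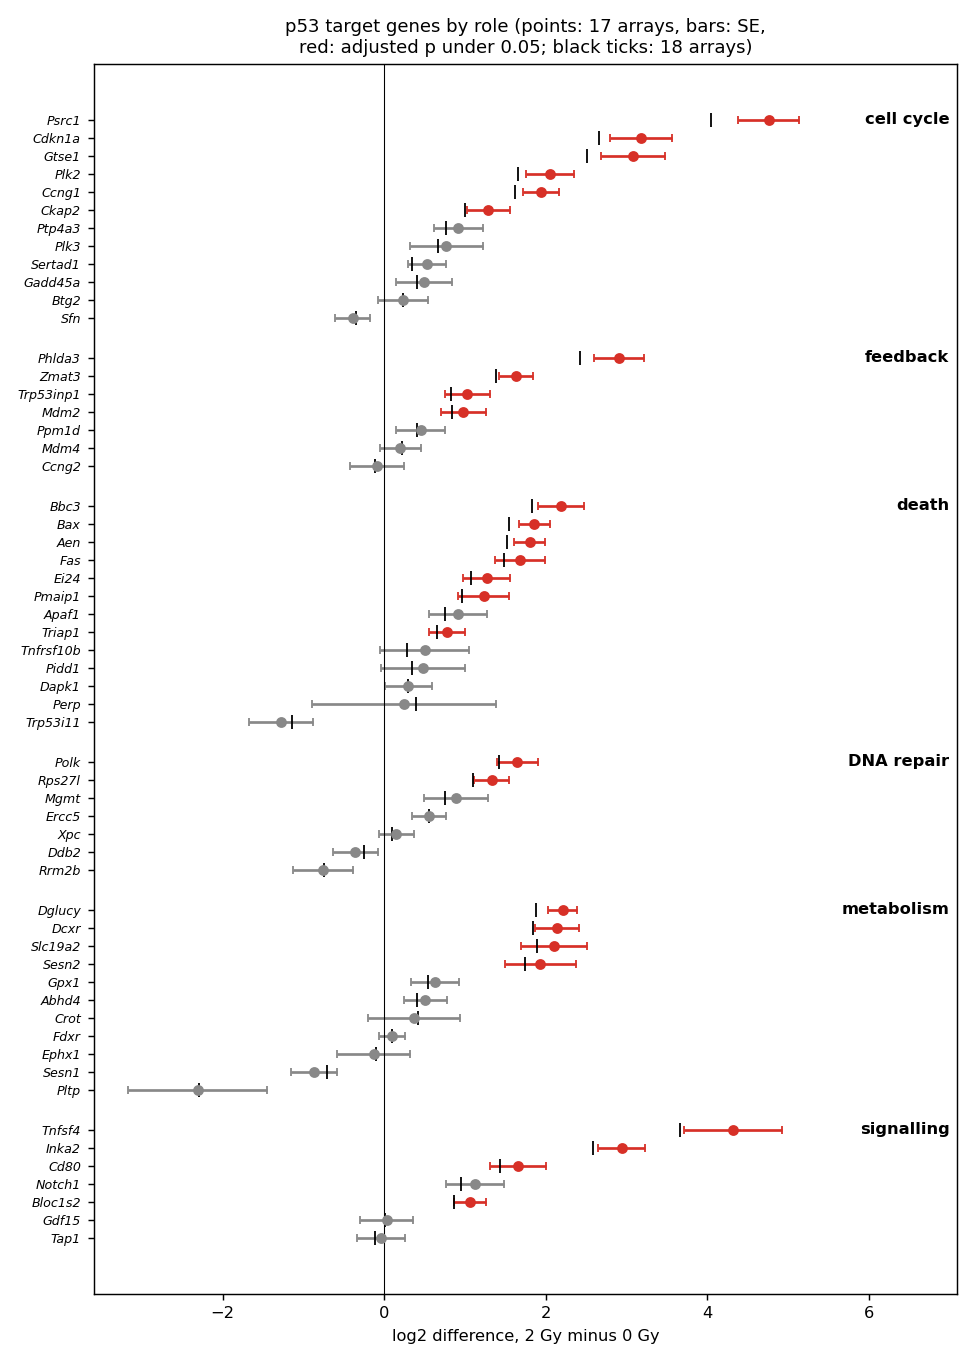
Log2 difference, 2 Gy minus 0 Gy (horizontal axis), of the 57 p53 targets tested, grouped by role. Points with standard error bars are from 17 arrays, red where the adjusted p was under 0.05, and black ticks are from 18 arrays; differences run from 4.76 for Psrc1 to -2.31 for Pltp, which did not pass.

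Since many of these genes rose together, their promoters were searched for the p53 consensus decamer, the building block of a p53 response element. Sequences were those of RefSeq on GRCm38.p6, from 250 bases before to 50 after each start, 32851 in all. The decamer is its own reverse complement, so a search of 1 strand covers both. It was present for 9.55% of the 27025 genes with a promoter and for 870 of the 10431 matched genes tested (8.34%). Of the 55 p53 targets that matched 15 held it (27.3%), as did 11 of the 23 that rose (47.8%) and 4 of the 24 that did not pass (16.7%). The list was made of known p53 targets, so its share above that of all genes is no test. Among all genes that rose it was present for 46 of 435 (10.6%), the 11 p53 targets included. Among those that fell it was present for 24 of 276 (8.70%). A match describes letters and is not a binding site, and no match says only that these letters are not in the window.

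Cdkn1a was the only listed target with decamers as a pair up to 13 bases apart, a layout held by 20 genes in all. The windows of 60 bases below, 5′ to 3′ on the gene's strand with the match in capitals, show Cdkn1a, 4 targets that rose and Sesn1, which has the decamer and did not pass. They lie at chr17:29090892-29090951 (plus strand) for Cdkn1a, chr7:45467065-45467124 (minus) for Bax, chr11:40755437-40755496 (minus) for Ccng1, chr3:105705352-105705411 (plus) for Inka2, chr10:117710910-117710969 (minus) for Mdm2 and chr10:41887241-41887300 (plus) for Sesn1, all on GRCm38.p6.
Cdkn1a: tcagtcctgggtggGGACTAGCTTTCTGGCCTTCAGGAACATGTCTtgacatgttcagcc
Bax: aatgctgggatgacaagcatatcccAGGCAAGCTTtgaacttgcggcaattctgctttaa
Ccng1: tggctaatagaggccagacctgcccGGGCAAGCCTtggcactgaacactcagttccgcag
Inka2: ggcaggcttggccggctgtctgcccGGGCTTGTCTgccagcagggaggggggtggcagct
Mdm2: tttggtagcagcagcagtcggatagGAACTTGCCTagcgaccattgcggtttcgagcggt
Sesn1: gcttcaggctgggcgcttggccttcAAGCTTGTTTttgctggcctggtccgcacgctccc

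The match in Cdkn1a starts 73 bases before the start of the gene, that in Inka2 81, that in Sesn1 173, that in Ccng1 185, that in Mdm2 186 and that in Bax 201. The gene that rose 1.98-fold, Mdm2, and the one that rose 9.07-fold, Cdkn1a, both hold matches.

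Repair genes outside the p53 list were described by a list of 32. Of these 4 fell, against 2.78% of all genes, and 1 rose, with a median of -0.49 against 0.08 over all genes. With 18 arrays 0 passed in limma, where 8 were lower and 1 higher with an unadjusted p under 0.05. Parp1, which marks strand breaks with poly(ADP-ribose), had 1.59, 1.70, 0.71, 0.60 and 1.46 at 2 Gy against 1.98 to 2.66 in the 6 sham arrays, and fell by 1.22 ± 0.24 (adjusted p = 0.0136). Atm, the kinase that signals double-strand breaks, fell by 1.48 ± 0.38 (adjusted p = 0.0335), the Ku subunit Xrcc6 by 0.91 ± 0.22 and Fanca of the Fanconi complex by 1.04 ± 0.22. Lig1, the ligase that seals replicated strands, rose by 1.26 ± 0.32 (adjusted p = 0.0326).

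Of 29 genes of G1/S and replication, Pold1, a subunit of replicative polymerase delta, fell by 1.46 ± 0.26 (adjusted p = 0.0074) and Cdt1, which licenses origins, by 0.93 ± 0.20 (adjusted p = 0.0171), and none rose, with a median of -0.37 over the list. Pcna, the polymerase clamp and also a p53-responsive gene, was at -0.06 ± 0.35. None of 27 mitotic genes passed in limma, where 1 had an unadjusted p under 0.05, and their median was 0.31. Of the 32 repair genes, 1 fell in place of 4 with 2 Gy replicate 4 or 5 left out, and Lig1 did not pass under 7 of the 11 fits that left out 1 more array. With a fixed block for slide or scan day, or brightness as a term, 0 of the 32 passed in limma. There 9, 8 and 6 had an unadjusted p under 0.05. With the RiboPure arrays alone 1 fell. In the same fits 0 of the 29 genes of G1/S and replication passed in limma, where 9, 10, 4 and 9 had an unadjusted p under 0.05.

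B cell transcripts had the lowest median of the lists examined. With 17 arrays 25 of 28 B cell genes fell and none rose, against 2.78% of all genes. With 18 arrays 0 passed in limma, where 26 were lower with an unadjusted p under 0.05, against 9.11% of all genes, and with 17 arrays 26 were, against 10.2%. Their median difference was -2.63, a 6.21-fold lower level. On all 5 arrays at 2 Gy, 25 of the 28 were below the 6 other sham arrays, against 2.64% of all genes, and 11 were below all 7 sham arrays, replicate 5 included, against 0.973%. Without 2 Gy replicates 4 and 5 in turn 16 and 13 fell. With a block for slide or for scan day, brightness as a term or the RiboPure arrays alone, 3, 1, 4 and 9 fell, with medians of -2.99, -2.81, -2.23 and -2.72.

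Transcription factors of the lineage were among them. Pax5, which fixes B cell identity, had -1.47, -1.17, -3.58, -3.80 and -2.94 at 2 Gy. Its 6 sham arrays ran from -0.21 to 2.86 with a median of 1.48, and the array labelled 0 Gy replicate 5 was at -3.15. Pax5 fell by 4.10 ± 0.71 (adjusted p = 0.00672), and 2 of 5 arrays at 2 Gy read it above background. Spib, an Ets factor, went from 2.87 to 4.35 to 0.56, 0.95, 0.56, -0.97 and 0.40 and fell by 3.29 ± 0.53 (adjusted p = 0.0038), below all 7 sham arrays, with replicate 5 at 1.02. With 18 arrays Pax5 differed by -3.33 ± 0.92 (adjusted p = 0.106) and Spib by -2.89 ± 0.59 (adjusted p = 0.0629). Ebf1, which acts upstream of Pax5, fell by 2.42 ± 0.47 and Bach2, a repressor of plasma cell fate, by 1.69 ± 0.23.

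Receptors fell as well. Tnfrsf13c, the receptor for the survival factor BAFF, had -0.76, 0.13, -0.30, -3.38 and 0.33 at 2 Gy against 2.63 to 3.90 in the 6 sham arrays and 0.34 in replicate 5. It fell by 3.93 ± 0.68 (adjusted p = 0.00672). Cd22, an inhibitory coreceptor, had -1.05, -0.47, -0.22, -3.13 and -0.31 against 2.22 to 3.41 and 0.38, and fell by 3.62 ± 0.68 (adjusted p = 0.0101). In both genes 2 Gy replicate 4 was the lowest by far and all 5 arrays were below every sham array. With 18 arrays the differences were -3.52 ± 0.72 and -3.29 ± 0.69, both with an adjusted p of 0.0629.

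Cd79b, a chain of the B cell receptor, had 3.75, 4.39, 3.77, 1.77 and 4.70 against 6.09 to 7.31 and 4.33 in replicate 5, and fell by 2.97 ± 0.58 (adjusted p = 0.0121). Ms4a1, which encodes CD20, fell by 3.02 ± 0.59 (adjusted p = 0.0121). Vpreb3, a chaperone of the receptor, had 0.54, 0.92, -0.45, -0.93 and 1.15 against 3.07 to 4.32 and -0.02. It fell by 3.03 ± 0.36 (adjusted p = 3.40e-04) and was the 1 B cell gene among the 17 that passed under every alternative to the fit of 17 arrays, whereas with 18 it was at -2.55 ± 0.53 (adjusted p = 0.0629). Cr2, the complement receptor CD21, was at 0.96 ± 0.43, Ralgps2 at -0.64 ± 0.27 and Bcl11a at -0.80 ± 0.55, and these 3 did not pass.

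MHC class II genes, which B cells and other antigen-presenting cells use to show peptides to T cells, fell in 7 of 10 cases, against 2.78% of all genes, with a median of -2.05, a 4.15-fold lower level. None passed in limma with 18 arrays, where all 10 were lower with an unadjusted p under 0.05 and the median was -1.87. H2-Aa, a chain of the I-A molecule, had 3.44, 3.02, 3.12, 1.46 and 2.92 at 2 Gy against 3.96 to 5.66 in the 6 sham arrays and 3.67 in replicate 5, and fell by 2.23 ± 0.56 (adjusted p = 0.0303). H2-Ob, part of a peptide-loading regulator of B cells, fell by 2.31 ± 0.45 (adjusted p = 0.0121), and Ciita, the master activator of the class II genes, by 2.15 ± 0.57 (adjusted p = 0.0359). H2-Eb1 and H2-Ab1, at -1.87 ± 0.57 and -1.76 ± 0.61, did not pass (adjusted p = 0.0586 and 0.0855). The count of 7 fell to 1 without 0 Gy replicate 1, 2 Gy replicate 4 or 2 Gy replicate 5, to 3 when 0 Gy replicates 2 or 7 were dropped, and to 4 for 0 Gy replicate 3 and for 2 Gy replicates 1 or 2. In the fits with a fixed block for slide or scan day, with brightness or with RiboPure alone it was 0 in limma, where 10, 10, 7 and 9 had an unadjusted p under 0.05.

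Among the largest falls outside the lists were Srpk3, a serine/arginine protein kinase, by 3.70 ± 0.82, B3gnt5, a glycosyltransferase of lactosylceramide, by 3.26 ± 0.48 and Pla2g2d, a secreted phospholipase, by 3.06 ± 0.51. Kcnj1, a potassium channel, had -3.02, -4.53, -4.81, -4.11 and -4.40 at 2 Gy against -2.25 to -0.81 in the 6 other sham arrays. The array labelled 0 Gy replicate 5 was at -5.21, below all 5 at 2 Gy. Kcnj1 was above background on 6 of 7 sham arrays and 0 of 5 at 2 Gy, so its level was at least 1.63-fold lower. Of all 371 genes that fell, 50 were read above background in none of the 5 irradiated mice and 217 in all 12 mice compared. Of the 534 that rose, 437 were above background in all 12. Over all 13356 genes tested, 393 were above background in none of the 5 and 9653 in all 12.

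T cell genes gave no call. None of 30 passed in limma with 17 arrays, where 3 had an unadjusted p under 0.05, and the median was -0.06. Cd3e, a chain of the T cell receptor complex, was at 0.15 ± 0.27, Cd4 at 0.46 ± 0.31 and Cd8a at -0.47 ± 0.40. The level of the list ran from -1.41 to 0.38 at 2 Gy and from -0.83 to 0.40 in the 6 sham arrays, so the groups overlapped, and the lowest array was 2 Gy replicate 3.

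NK and cytotoxic genes rose in 2 of 22 cases, against 4.00% of all genes, the granule protein Nkg7 by 1.13 ± 0.31 (adjusted p = 0.0425) and the receptor Klrb1b by 1.04 ± 0.29 (adjusted p = 0.0442). They passed under 3 and 9 of 25 alternatives, and with 18 arrays 0 of the 22 passed in limma, where 3 had an unadjusted p under 0.05. The NK receptor Ncr1 was at 0.43 ± 0.28 and did not pass, and the list's level overlapped between the groups, from -0.33 to 1.23 at 2 Gy and from -0.65 to 0.55. With 17 arrays 10 of the 22 were higher with an unadjusted limma p under 0.05, against 16.8% of all genes. All 22 differences were above 0, against 55.1% of all genes, and their median was 0.69.

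Mature neutrophil genes rose in 13 of 29 cases, against 4.00% of all genes, and none fell, with a median of 1.81, a 3.51-fold higher level. With 18 arrays 0 passed in limma, where 20 were higher with an unadjusted p under 0.05, against 11.3% of all genes, and the median was 1.45. S100a9, a calcium-binding protein that fills the neutrophil cytosol, had 10.67, 10.01, 9.99, 12.15 and 11.31 at 2 Gy against 8.65 to 9.83 in the 6 sham arrays and 11.04 in replicate 5. It rose by 1.81 ± 0.39 (adjusted p = 0.0166), and with 18 arrays it did not pass (adjusted p = 0.12). Il1r2, a decoy receptor for interleukin 1, had 2.81, 1.12, 0.81, 4.82 and 3.42 against -0.97 to 0.04 and 2.61, and rose by 2.93 ± 0.70 (adjusted p = 0.0248). The arrays at 2 Gy were all above the 6 sham arrays, with replicate 4 highest and replicate 3 lowest in both genes.

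Csf3r, the receptor of the granulocyte growth factor G-CSF, rose by 2.03 ± 0.44 (adjusted p = 0.0169) but overlapped the sham range, with 3.39 in 2 Gy replicate 3 and up to 3.61 at 0 Gy. Mmp9, a gelatinase, rose by 1.93 ± 0.36 (adjusted p = 0.0102), Trem1, an activating receptor, by 2.09 ± 0.42 (adjusted p = 0.0136) and the chemokine receptor Cxcr2 by 2.28 ± 0.64 (adjusted p = 0.0451). None of the neutrophil genes named here passed under every alternative. Of the 29 genes 0 rose in limma without 2 Gy replicate 5 (20 with an unadjusted p under 0.05). Dropping 2 Gy replicates 1, 3 or 4 left 5, 22 or 3. Dropping 0 Gy replicates 1, 4, 6 or 7 left 4, 8, 8 or 6. With brightness as a term, the scan day as a block or the RiboPure arrays alone 0 rose in limma, where 19, 22 and 20 had an unadjusted p under 0.05 and the medians were 1.37, 1.96 and 1.48.

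Of 15 genes of neutrophil precursors and granules, Lcn2, an iron-trapping granule protein, rose by 2.40 ± 0.66 (adjusted p = 0.0428). Serpinb1a, an inhibitor of neutrophil elastase, fell by 2.03 ± 0.49 (adjusted p = 0.0252), from 3.42 to 5.14 in the 6 sham arrays to 2.71, 2.30, 2.98, 1.86 and 2.95. Among 23 monocyte genes, the Fc receptor Fcgr4 and the peptidase Ace rose by 1.26 ± 0.31 and 1.21 ± 0.33, and the other 21 did not pass. Of other genes of patrolling monocytes, the fractalkine receptor Cx3cr1 was at 0.16 ± 0.39, Nr4a1 at 0.17 ± 0.32, Spn at -0.30 ± 0.28 and Pou2f2 at -0.88 ± 0.31. Ccr2, the receptor of classical monocytes, was at 0.07 ± 0.33. The median of the list was 0.17, and -0.06 with quantile normalization.

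Of 13 eosinophil and basophil genes, Hdc, which makes histamine and is also on the neutrophil list, rose by 1.83 ± 0.50. Il5ra, the eosinophil growth receptor, was above background on 6 of 7 sham arrays and 0 of 5 at 2 Gy, and its level was at least 2.77-fold lower (adjusted p = 0.0428). Cd200r3, a basophil receptor, fell by 1.26 ± 0.36 (adjusted p = 0.0456), a difference that was 0.15 with normexp. Thus 1 of the 13 rose and 2 fell, against 4.00% and 2.78% of all genes. Their median was -0.06, with 5 differences above 0 and 8 below. Siglecf and Il4, at 0.97 ± 0.33 and 1.12 ± 0.34, did not pass. Of 10 plasma cell genes 1 fell, against 2.78% of all genes. It was Irf4, a factor shared by plasma cells and activated B cells, by 2.27 ± 0.54 (adjusted p = 0.0242). The median of the 10 was 0.17, with 7 above 0 and 3 below, and Ighg1, at 1.25 ± 0.42, did not pass.

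Platelet genes rose in 6 of 29 cases, against 4.00% of all genes, with a median of 1.01. With an unadjusted p under 0.05, 23 of 29 were higher, against 16.8%. With 18 arrays 0 passed in limma, where 20 were higher with an unadjusted p under 0.05, against 11.3%, and the median was 0.82. Pf4, a chemokine of platelet granules, had 10.24, 10.56, 9.35, 10.78 and 10.29 at 2 Gy against 8.43 to 9.61 in the 6 sham arrays and 10.36 in replicate 5. The groups overlapped through 2 Gy replicate 3, and Pf4 rose by 1.11 ± 0.27 (adjusted p = 0.025). Without 2 Gy replicate 3 the number that rose was 24, whereas without 2 Gy replicates 1, 4 or 5 or 0 Gy replicates 1 or 2 it was 0 in limma (20 to 23 with an unadjusted p under 0.05), dropping 2 Gy replicate 2 left 1, and dropping 0 Gy replicates 4 or 7 left 3 or 2. With quantile normalization it was 0 (12 with an unadjusted p under 0.05) and the median 0.52.

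None of 40 erythroid genes passed in limma, where 15 were higher with an unadjusted p under 0.05, against 16.8% of all genes, and without 2 Gy replicate 3 12 rose. Their median of 0.50 was -0.01 with quantile normalization, so no direction is given. The 46 ribosomal protein genes, of which none passed and 4 had an unadjusted p under 0.05, likewise had a median of 0.06 that was -0.48 with quantile normalization.

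**Figure D4:**
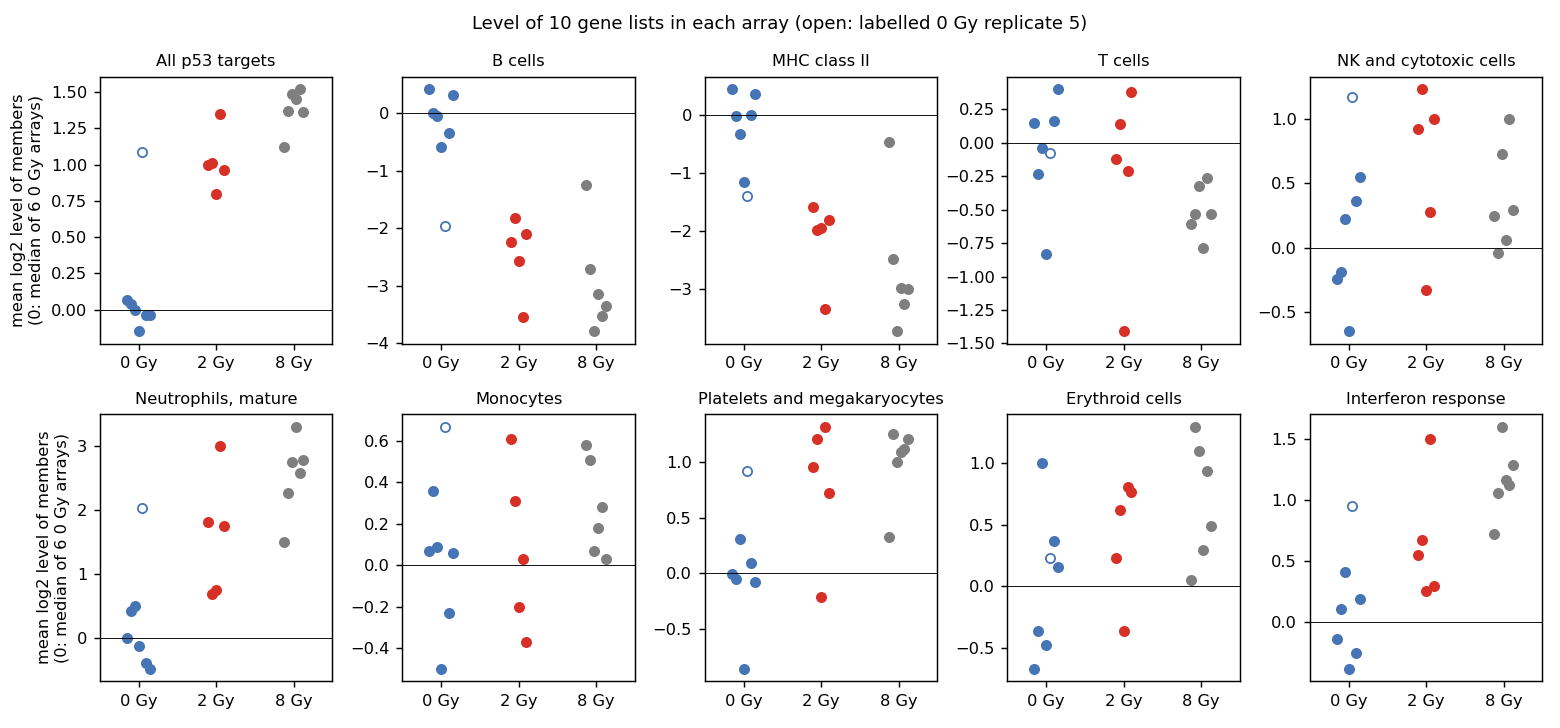
Mean log2 level of the measured members of 10 gene lists in each array (vertical axes; 0 is the median of the 6 other sham arrays) by dose, with the array labelled 0 Gy replicate 5 as an open point. The p53 level at 2 Gy is 0.80 to 1.35 and the B cell level -3.55 to -1.82, whereas T cell and monocyte levels overlap between 0 Gy and 2 Gy.

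Stress and cytokine genes were read from 6 smaller lists, whose counts stand beside the 4.00% of all genes that rose. With 18 arrays 0 members of these lists passed in limma, where 4 to 11 of each were higher with an unadjusted p under 0.05. Of 26 NF-kB and inflammatory genes 5 rose, Il1b, Il1rn, Tnfaip2, Ier3 and Socs3. The interleukin 1 receptor antagonist Il1rn rose by 2.18 ± 0.43 (adjusted p = 0.0135) and interleukin 1 beta itself, Il1b, by 1.78 ± 0.43 (adjusted p = 0.0252). Of 18 glucocorticoid-responsive genes 4 rose, among them Fkbp5, a cochaperone of the receptor, by 2.25 ± 0.53 (adjusted p = 0.0231), whereas Tsc22d3, another classic target, was at -0.16 ± 0.30. Il1r2, already described, is also on this list.

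Of 22 genes of the antioxidant factor NRF2, 6 rose, among them heme oxygenase Hmox1 by 1.19 ± 0.24 (adjusted p = 0.0135) and the ferritin light chain Ftl1 by 1.41 ± 0.38 (adjusted p = 0.0413). Of 33 interferon-response genes 4 rose, the chemokine Cxcl10 by 1.53 ± 0.43, Ifit3 by 1.54 ± 0.44, Mx1 by 1.16 ± 0.33 and Rtp4 by 1.15 ± 0.32. Their adjusted p lay between 0.0448 and 0.0474. Of 22 immediate early genes, Jun and Junb, subunits of AP-1, rose by 1.31 ± 0.30 and 1.24 ± 0.29, and Myc was at -1.57 ± 0.52 (adjusted p = 0.0744). Of 36 respiratory chain genes Ndufa4, Cox6c, Cox5a and Ndufb9 rose by 0.71 to 0.87, while the median of the list, 0.13, was -0.12 with quantile normalization.

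The counts of these smaller lists turned on single arrays. Dropping 2 Gy replicate 5 left 0 NF-kB, 0 NRF2, 0 immediate early and 0 respiratory chain genes past the threshold in limma, where 13, 10, 6 and 7 had an unadjusted p under 0.05. Dropping 2 Gy replicate 4 left 0 glucocorticoid-responsive genes (6 with an unadjusted p under 0.05), and dropping any of 6 arrays left 0 interferon-response genes (10 to 18). Without 2 Gy replicate 3, by contrast, 9 NF-kB, 9 NRF2, 7 immediate early, 7 respiratory chain, 6 glucocorticoid-responsive and 10 interferon-response genes rose. The monocyte, NK, eosinophil and basophil, plasma cell and neutrophil precursor calls were also absent after dropping 2 Gy replicate 5 (limma, 2 to 8 genes of each list with an unadjusted p under 0.05), and 10 NK genes rose without 2 Gy replicate 3.

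**Figure D5:**
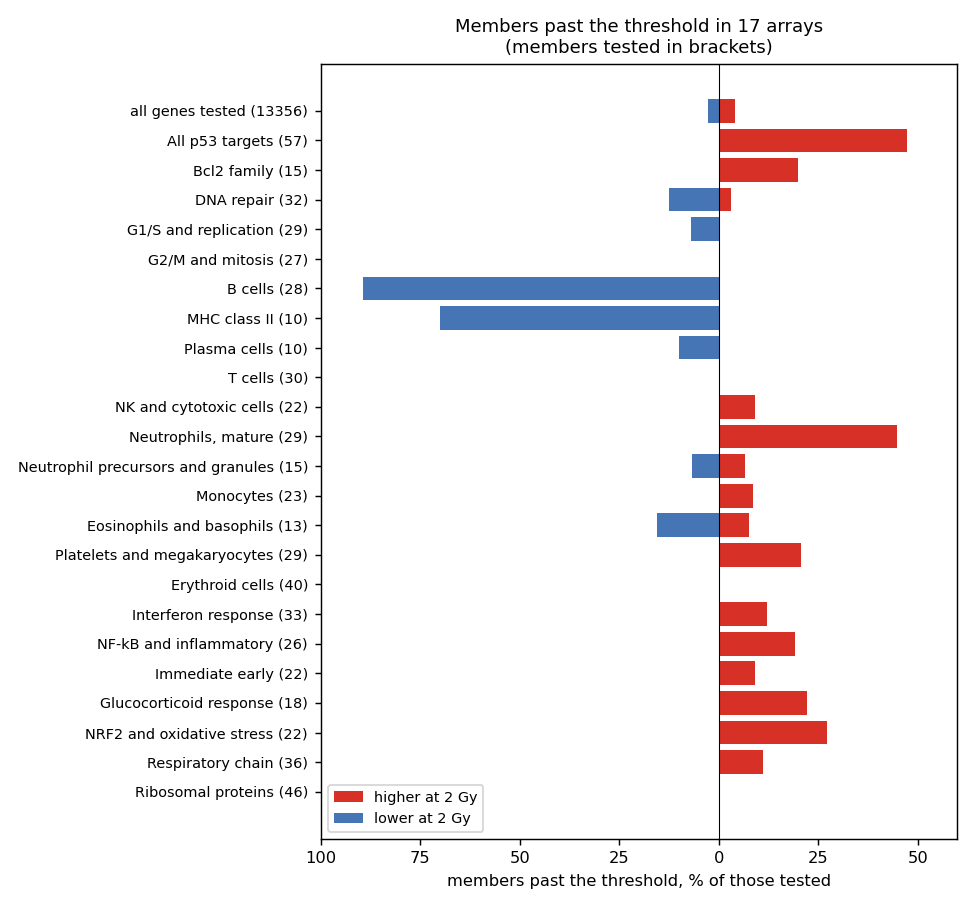
Share of each list's tested members that passed with 17 arrays (horizontal axis, %), higher at 2 Gy to the right in red and lower to the left in blue, with the number tested in brackets. B cells with 25 of 28 lower, MHC class II with 7 of 10 lower, p53 targets with 27 of 57 higher and mature neutrophils with 13 of 29 higher stand out from the 4.00% and 2.78% of all genes.

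Some arrays share a slide, which allows a comparison of 2 Gy with 0 Gy inside it. On the slide with 2 Gy replicates 1 and 2 and 0 Gy replicate 2, the median difference was 0.88 over the p53 targets and -2.30 over the B cell genes. On the slide with 2 Gy replicate 5 and 0 Gy replicate 6, both PAXgene, it was 0.96 and -1.97. On the slide with 2 Gy replicate 3 and the array labelled 0 Gy replicate 5, it was -0.64 and -0.59, and -0.41 over all genes tested. The first pair of slides thus gave p53 medians near that of the whole set and clearly negative B cell medians. On the last the p53 and B cell medians, -0.64 and -0.59, were both negative and both lay below that of all genes, -0.41.

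The same genes at 8 Gy can be set beside these values, though both doses are measured against the same sham arrays. With 17 arrays Psrc1 differed from 0 Gy by 4.76 at 2 Gy and 5.20 at 8 Gy, and Cdkn1a by 3.18 and 4.01. Dglucy was at 2.21 and 2.10, and Mdm2 at 0.98 and 1.37. Il1r2 was at 2.93 and 4.59, Tnfrsf13c at -3.93 and -4.98, and Sesn1 at -0.87 and -1.09. The median over the p53 targets was 0.91 and 1.23, and over the B cell genes -2.63 and -2.93. The step between the doses was not tested here.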

How the data were processed

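Blood RNA of 18 mice was measured on 1-colour Agilent arrays with Cy3. Per the file headers, the deposited scanner files hold a processed signal, an intensity on a linear scale, that Agilent Feature Extraction 9.5.3.1 had background-subtracted and detrended. A deposited table for all arrays gives a linear intensity whose log2 values correlated with those of the processed signals with r from 0.989 to 1.00 within an array, and how it was made is not given in the sources used here. The submitters' processing notes name limma without a version. Every column used belonged to a sample, so 0 columns were left aside for lack of one.

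Signals of 43379 spots were averaged to 41174 probes (45 values marked as outliers by the scanner software were left out), taken to log2 and reduced by the array's 75th percentile. Kept were 22038 probes with a signal marked well above background in 5 or more mice of 18, and the brightest probe stood for each of 13356 genes, of which 4754 had more than 1. Names came from RefSeq accessions (23082 probes), symbols (6582), older symbols (3073) or the file itself (1284), and 7153 probes had none. limma 3.58.1 in R 4.3.3 fitted dose and RNA kit to 18 arrays, and again to 17 without the array labelled 0 Gy replicate 5. Tests were 2-sided, with Benjamini-Hochberg adjustment over all genes and a threshold of 0.05. The method was tested on simulated data. Group brightness was compared by exact permutation over samples. Means over arrays in figures carry the SD.

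The members, the 29 gene lists and the tests were chosen with earlier results of these data known, and some genes stand on more than 1 list. Named by rule were genes past the threshold with 18 arrays (up to 20), the 10 just outside it, the 15 largest non-overlapping rises and falls with 17 arrays, core p53 targets, and, from each list, the 4 genes of smallest p (or fewer). Other list members named to complete a count, or as a well-known gene of their list, were chosen after their values were seen. Alternatives were quantile normalization, normexp with an offset of 50, the deposited table, other filters and probe rules, fewer arrays, slide, scan day, brightness or replicate number as terms, and leaving out each array. Replicate numbers did not pair samples. Positions of probes were taken from the files (mm7), and the exons or UTRs they fall in were not analysed here. Of the 142 genes named by rule, 3 have a probe placed on a chromosome name other than RefSeq's.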

Additional observations from a re-analysis of the deposited data

Results flagged for a closer look

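In some groups 1 array lay apart from the rest: its gap to the nearest array, divided by the group's range, was above Dixon's critical value, which chance alone passes in about 1 of 20 groups. Over 58 pairs of a list and a dose, this held for 12, and 8 of them were the array labelled 0 Gy replicate 5. Over 284 pairs of a gene and a dose it held 39 times for that array, 7 times for 2 Gy replicate 3, 5 times for 2 Gy replicate 4 and 1 time for 0 Gy replicate 4. Many of these genes were named from the fit without the array labelled 0 Gy replicate 5, and the lists share members. The rate of 1 of 20 is therefore no measure for these counts. The values follow, with no explanation weighed.

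The array labelled 0 Gy replicate 5 stood above the other sham arrays in the level of the p53 targets as a whole (1.09) and of their cell cycle (1.67), death (0.88) and signalling (1.68) members. It stood above them in the Bcl2 family (0.63), mature neutrophil (2.03) and NF-kB (1.06) lists, and below them in the B cell list (-1.97). Among p53 targets its values were 2.86 for Psrc1, -2.01 for Inka2, 3.27 for Dglucy, 3.42 for Aen, 1.95 for Dcxr and -1.73 for Tnfsf4. They were -0.08 for Gtse1, 3.31 for Ccng1, 3.06 for Bax and 2.61 for Bloc1s2. Among other genes higher at 2 Gy they were -2.06 for 9230114K14Rik, 1.85 for Aaas, -1.35 for 1700007K13Rik, -1.81 for Ddias, 2.26 for Scrg1 and 3.91 for Asprv1.

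For neutrophil and inflammatory genes the same array held 2.61 for Il1r2, 4.30 for Mmp9, 0.86 for Trem1, 3.40 for Pglyrp1, 1.47 for Il1rn, 4.47 for Tnfaip2, 6.74 for Il1b and 6.96 for Cebpd. It held 0.67 for Jun, 7.17 for Junb, 1.15 for Klrb1b and 7.85 for Cox5a. For B cell genes it held 0.34 for Tnfrsf13c, 0.38 for Cd22, 1.54 for Fcrla, -0.02 for Vpreb3, 3.00 for Fcmr, 4.33 for Cd79b and -0.84 for Fcer2a. For other genes lower at 2 Gy it held 0.26 for Gga2, -1.20 for Srpk3, 3.69 for 2010309G21Rik and -5.21 for Kcnj1.

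At 2 Gy, replicate 3 was highest in the level of the metabolic p53 targets (1.25) and lowest in Tnfsf4 (-4.41), Bax (2.35), Ddb2 (-0.54), Rasgrp1 (1.15), Nkg7 (4.12), Fasl (-0.67) and Edem1 (2.94). Replicate 4 was lowest in the MHC class II list (-3.36), Cd22 (-3.13), Spib (-0.97), H2-Aa (1.46) and Myc (-1.56), and highest in Rtp4 (6.57). At 0 Gy, replicate 4 was lowest in the G1/S list (-0.53) and in Cd2 (0.75), and replicate 6 highest in the plasma cell list (0.51).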

How the results depend on the processing

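With 18 arrays the count of 7 was 53 with normexp, and 2 of the 7 were among them. With the stricter filter, at least 12 arrays above background, it was 4, all higher. The 3 genes that fell were not past that filter. With the 0 Gy and 2 Gy arrays alone the count was 2, both lower and neither among the 7. With the replicate block it was 68, all 7 included. It was 0 in limma with no filter, the RiboPure arrays alone, a fixed block for slide or for scan day, or brightness as a term (unadjusted p under 0.05 in 5825, 1610, 1798, 1849 and 809 genes). Leaving out 1 of the 0 Gy or 2 Gy arrays in turn gave 0 to 905. With 17 arrays the count of 905 was 348 with normexp, 601 with no filter, 984 with the stricter filter and 105 with RiboPure alone. It was 101 with the slide as a fixed block, 1227 with the slide as a random block and 25 with the scan day. With brightness it was 40, with the replicate block 188, and with 1 more array left out 164 to 2403. The fits with fewer arrays or genes or more terms have fewer degrees of freedom or other tests to adjust over, and the cause of the other shifts was not tested. Over all 905 genes, 864 kept their sign under normexp and 901 with the mean of all probes of a gene. Among the named genes that passed, the differences of 2 turned sign, both under normexp. They were D130051D11Rik, to 0.09 with 18 arrays and 0.13 with 17, and Cd200r3, to 0.15. Over the alternatives, the 107 named genes that passed with 17 arrays kept their call in 1845 fits and lost it with the same sign in 816. Replicate numbers did not pair the samples: same-numbered arrays at 0 Gy and 2 Gy had correlations of deviations of 0.119, 0.261, -0.34, -0.345 and -0.073, and none of the 5 correlated best with its own number. Signal limits the falls: 50 of 371 were read above background on no array at 2 Gy, against 393 of all 13356 genes tested.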
